A study of Mus musculus with 30 samples.

Results

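The insulin-like growth factor (IGF) system was examined in the primary visual cortex (V1) of the mouse at 3 ages. Its members were taken as 9 genes, namely the ligands Igf1 and Igf2, the receptors Igf1r and Igf2r, and the binding protein genes Igfbp2, Igfbp3, Igfbp4, Igfbp5 and Igfbp6, a list of symbols drawn up with earlier results of these data known. Every probe set whose array annotation gave a member's symbol alone was taken, which gave 19 probe sets for 8 of the 9 genes, out of 15964 genes with a probe set of their own on the arrays. For Igfbp5 the annotation gave 1 probe set, which it shared with Tmem119, so no value of Igfbp5 is given. Of the 19 probe sets, 12 passed the filter on low signals (above the median of their chip on at least 3 arrays), and these covered 7 genes, since both probe sets of Igfbp3 were too dim.

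V1 was microdissected from litters of normally reared mice at postnatal day 14 (P14, around eye opening, 3 litters), day 28 (P28, in the critical period for ocular dominance plasticity, 3 litters) and day 60 (P60, young adults, 4 litters). No genotype or treatment differed between the groups, and strain, sex and the number of animals in a litter sample are not given in the sources used here. Total RNA of each litter was hybridised to 3 Affymetrix array types (MG-U74 version 2, here chips A, B and C), so each probe set has 1 value per litter. The values are MAS5 signals, linear intensities with no unit, whose 2% trimmed mean was 500 on every array. Nothing in the labels says how the litters were bred, so p-values measure the spread between these litter samples, and the number of arrays limits their precision.

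Igf1 and Igf2 encode small secreted growth factors related to insulin. Igf1r encodes the receptor tyrosine kinase through which both act, whereas Igf2r encodes the cation-independent mannose-6-phosphate receptor, which takes Igf2 up and delivers it to lysosomes. The binding proteins hold the ligands outside the cell and change how much of them reaches the receptor, and the product of Igfbp6 is known for its preference for Igf2 over Igf1. Igf2 is counted among the imprinted genes, and the arrays do not tell which allele was transcribed in this tissue. In the brain its transcripts are known mainly from the meninges, the choroid plexus and vessels. Igf1 is known from neurons, including interneurons, and from microglia.

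Both genes whose probe sets changed with age, Igf2 downwards and Igfbp6 upwards, are shown with the stretch of 300 bases around an annotated transcription start (RefSeq, build GRCm38.p6). The table matched all 9 member genes, with 4 starts for Igf2, 2 for Igfbp2 and 1 for each of the others, and for Igf2 the start furthest downstream in the gene is shown. The arrays do not tell which start was used. Capitals mark matches on either strand to the letters GGGCGG, called a GC box here, and TATAAA, called a TATA motif here, and no match overlaps another.
Igf2, chr7:142657447-142657746, minus strand: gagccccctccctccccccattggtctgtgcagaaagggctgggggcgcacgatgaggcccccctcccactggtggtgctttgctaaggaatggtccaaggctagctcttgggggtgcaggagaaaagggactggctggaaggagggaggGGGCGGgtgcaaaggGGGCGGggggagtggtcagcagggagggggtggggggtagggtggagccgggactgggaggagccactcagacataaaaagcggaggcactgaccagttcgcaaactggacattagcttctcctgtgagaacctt
Igfbp6, chr15:102143936-102144235, plus strand: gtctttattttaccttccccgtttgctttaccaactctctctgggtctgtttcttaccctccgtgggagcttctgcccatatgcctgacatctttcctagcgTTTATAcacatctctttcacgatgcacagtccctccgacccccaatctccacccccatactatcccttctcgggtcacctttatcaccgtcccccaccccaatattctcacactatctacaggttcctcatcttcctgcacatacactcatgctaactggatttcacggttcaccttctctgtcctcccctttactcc
The Igf2 stretch held 2 GC boxes and 7 CpG dinucleotides, and the Igfbp6 stretch held no GC box, 1 TATA motif and 8 CpG dinucleotides. Over 32817 annotated start regions of the same length, 35.6% held a GC box, 13.6% held a TATA motif, and the median number of CpG dinucleotides was 7. Among the members, the start region of Igf1r held 48 CpG dinucleotides and that of Igf2r held 34.

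The arrays of P14 litter 1 stood apart in RNA quality. The ratio of 3' to 5' signal of that litter lay between 9.57 and 12.2 for Gapdh over the 3 chips and between 12.2 and 12.8 for Actb, against 0.741 to 1.32 and 1.04 to 1.5 on the other 27 arrays. Results are therefore also given without that litter. A restricted set, known from earlier work on these data, is given as well. It further leaves out P60 litters 1 and 4 on chips A and B and P60 litter 2 on chip C. Those P60 arrays were among the 27 with low ratios. Their mean correlation with the other arrays of their chip was 0.858 to 0.923. Markers of excitatory cortical neurons were present, as all 14 measured genes of that list lay above the level of the Bacillus control probe sets at some age.

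**Figure D1:**
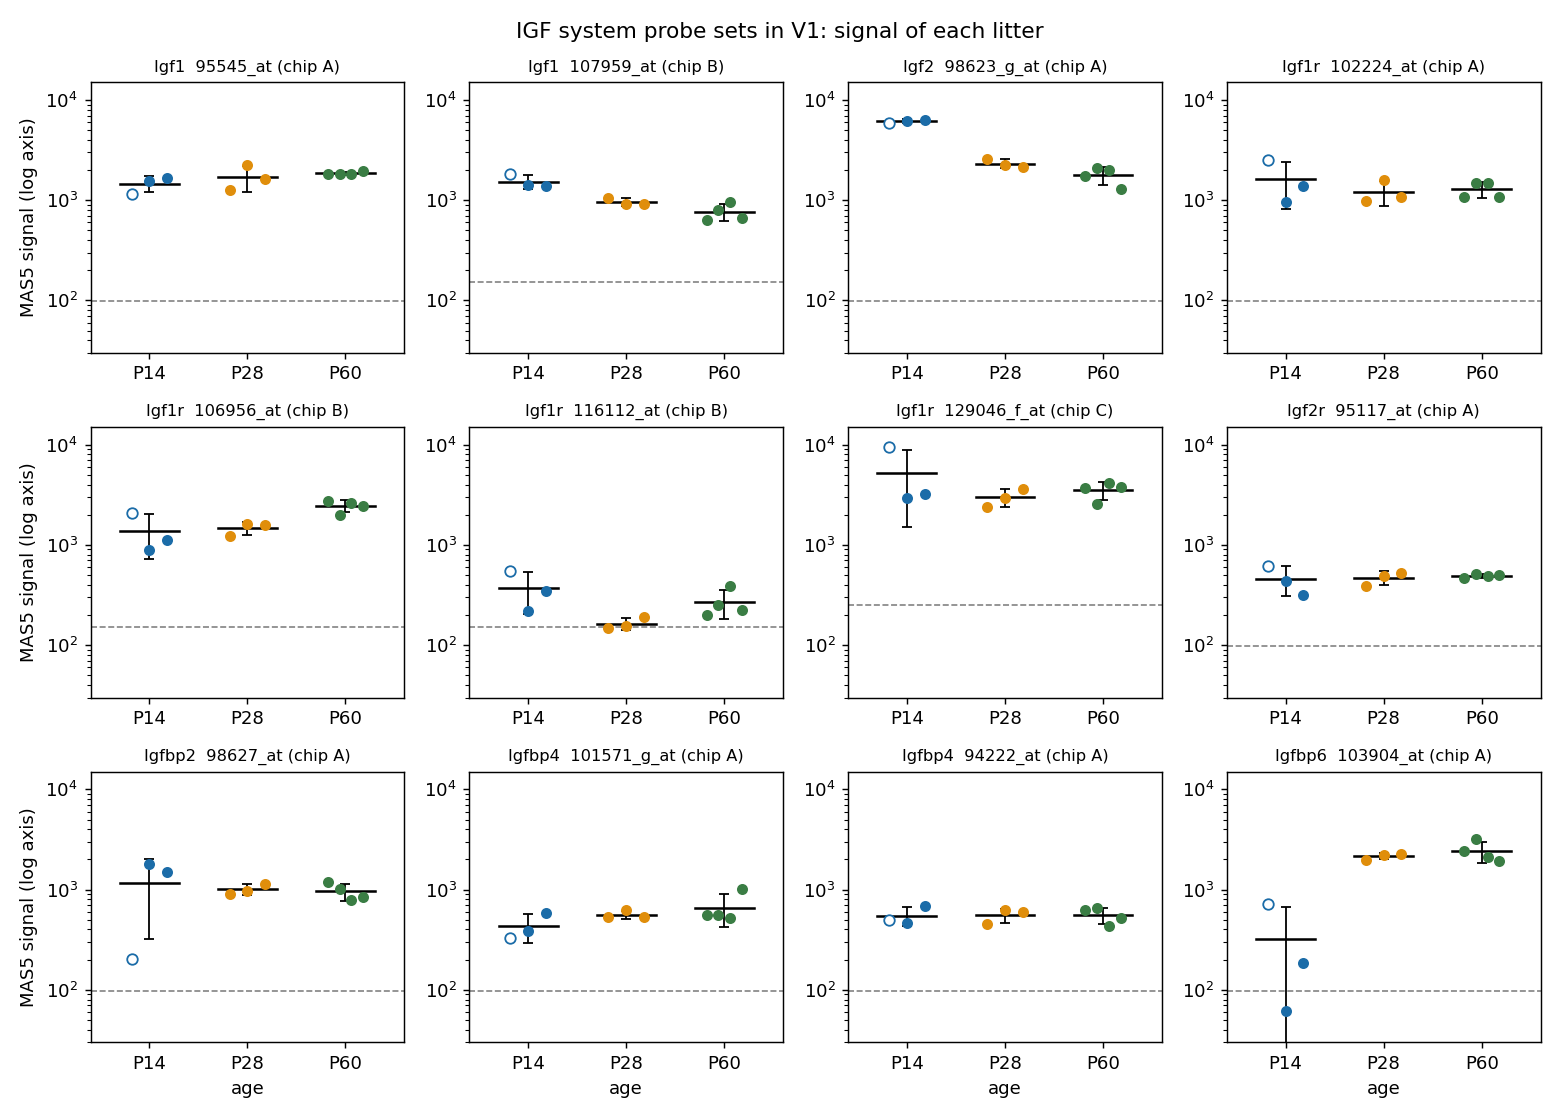
MAS5 signal (log axis) against age for the 12 tested probe sets, 1 point per litter, with the mean and its SD as bars, lower bars being limited to values above 0. Open points are P14 litter 1 and the dashed line is the 95th percentile of the Bacillus control probe sets of the chip. Igf2 stood at 5914 to 6386 at P14 and no higher than 2577 later, and Igfbp6 stood at 723 or less at P14 and at 1918 or more later.

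The signal of the ligand Igf2 was lower in the young adult cortex than at P14 on 1 of its 2 probe sets. On its bright probe set, on chip A, the P14 litters gave signals of 5914, 6182 and 6386. The P28 litters gave 2577, 2241 and 2124, and the P60 litters gave 1745, 2099, 1993 and 1307. No litter of an age overlapped with those of another, so every P28 litter was below every P14 litter and every P60 litter was below every P28 litter. Mean signals were 6160 ± 237 (SD, n = 3) at P14, 2314 ± 235 (SD, n = 3) at P28 and 1786 ± 352 (SD, n = 4) at P60, the P60 mean being 0.29 times that at P14.

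Between P14 and P60 Igf2 fell by 1.79 on the log2 scale (log2 of signal plus a constant, standard error 0.2, 95% interval -2.22 to -1.35, limma adjusted p = 0.00937). Over the 20724 tested probe sets its p-value was the second smallest of that comparison (rank 2), and its size of change had rank 45. Between P14 and P28 the log2 difference was -1.40 (95% interval -1.87 to -0.94), with an adjusted p of 0.0836 that missed the threshold of 0.05. Between P28 and P60 it was -0.38 (95% interval -0.82 to 0.05, adjusted p = 0.894). P14 litter 1 gave the lowest Igf2 signal of its age, and without it the values were -1.81 (adjusted p = 0.00146) for P60 against P14 and -1.43 (adjusted p = 0.0246) for P28 against P14. Igf2 was also the 1 member that passed when the 3 ages were tested together (limma moderated F, adjusted p = 0.0201), where 0.111% of all tested probe sets passed.

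The call for P60 against P14 was lost without P14 litter 2 (-1.78, adjusted p = 0.0556) and in a fit of these 2 ages alone (-1.79, adjusted p = 0.0714). The probe set is of the g type, whose probes can be shared by a group of related transcripts. The other Igf2 probe set, also on chip A, had signals from 12.3 to 24.1 on all 10 arrays and so carries no information on age. It has no type letter, and its annotation names the same source sequence. All its signals lay below the control level of 98.4, so it did not detect the transcript that the g-type probe set reports.

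In bulk tissue, fewer cells of a type and less RNA per cell cannot be told apart, so markers of the cells known for Igf2 were read beside it. Of 16 tested genes on the meningeal and fibroblast list, 0 rose and 1 fell between P14 and P60 by limma, and their median log2 change was 0.21, against 0.06 over all tested probe sets. The gene that fell was Ccn3, whose product carries a module like that of the IGF binding proteins, at -1.79 (adjusted p = 0.0179). Col1a1 was at -0.78 (adjusted p = 0.0808), with mean signals of 998, 542 and 565 in age order. By the log2 change, 9 of the 16 tested genes were higher at P60 than at P14. The summed signal of the 24 measured genes ran from 23935 to 30048 over the P14 litters, from 21162 to 26404 at P28 and from 18874 to 34308 at P60, so the ages overlapped, and 3 of the genes (Aebp1, Slc22a6 and Slc22a2) had every age mean below the control level. Choroid plexus genes had a summed signal of 859 to 1163 at P14 and 1512 to 1859 at P60 over 9 measured genes, of which Kl, Slc4a5, Kcne2 and Cldn2 were below the control level at every age. Endothelial genes summed to 5102 to 6423 at P14 and 4760 to 5874 at P60 (13 measured, 0 of 9 tested genes past the threshold), with Tek below the control level. Mural cell genes summed to 2343 to 2732 at P14, 1969 to 2272 at P28 and 2310 to 3964 at P60 (11 measured, 0 of 6 tested past the threshold), with 5 below the control level. The part of any of these cells in the fall of Igf2 was not tested.

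The genes whose signal over the 10 litters was most like that of Igf2 were Pid1 (Pearson r = 0.972), Ncam1 (0.962), Dner (0.959), Dnmt3a (0.958) and Ybx1 (0.955), as a description over litters that share arrays and ages. Mean signals in age order were 571, 391 and 362 for Pid1, 3310, 1673 and 1608 for the adhesion molecule gene Ncam1, and 5519, 2820 and 2391 for the Notch-related gene Dner. They were 2402, 1236 and 815 for the DNA methyltransferase gene Dnmt3a and 17704, 8106 and 7269 for Ybx1, which encodes a nucleic acid binding protein. As these 5 genes were picked for their likeness to a gene that fell with age, their lower means at the later ages follow from the choice and are not tested. Of 19 tested imprinted genes other than the members, limma called 0 in each of the 3 comparisons and the median log2 change between P14 and P60 was 0.0014, with Rasgrf1 at 1.19 (adjusted p = 0.0787), Ndn at -0.69 (adjusted p = 0.162) and Ppp1r9a at -0.60 (adjusted p = 0.337). The summed signal of the 25 measured genes was 57954 to 81948 at P14 and 53479 to 55284 at P60, with P14 litter 1 the highest.

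Igf1 gave a different picture on each of its bright probe sets. On the bright probe set of chip B, the P14 litters stood at 1809, 1408 and 1372, the P28 litters at 1058, 922 and 916, and the P60 litters at 632, 800, 961 and 671. Every P14 litter was above every later litter, whereas P28 and P60 overlapped. The log2 difference of P60 from P14 was -0.95 (95% interval -1.37 to -0.53), and its adjusted p of 0.0592 missed the threshold. It passed without P14 litter 1 (-0.83, adjusted p = 0.0483), without P60 litter 3 (-1.06, adjusted p = 0.0357) and with array quality weights (adjusted p = 0.00174), and not in the restricted set (-0.63, adjusted p = 0.0896). With array quality weights the P28 difference from P14 passed as well (adjusted p = 0.0323), and over all alternatives the adjusted p for P60 ranged up to 0.251.

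On the bright probe set of chip A the means rose with age, though no comparison passed. Its signals were 1162, 1548 and 1670 at P14, 1275, 2255 and 1617 at P28, and 1825, 1840, 1829 and 1936 at P60. The P60 litters lay close together and above all P14 litters, but the P28 litters spanned both. The log2 difference of P60 from P14 was 0.36 (95% interval -0.12 to 0.83, limma adjusted p = 0.438). Without P14 litter 1, the lowest of its age, the P60 mean was 1.15 times that at P14, against 1.27 times with all litters. The gap between the log2 changes of the chip A and chip B probe sets (A minus B) was 1.31 for P60 against P14, with an exact two-sided permutation p of 0.0571, the smallest that 3 against 4 litters allow, and 0.178 after Benjamini-Hochberg adjustment over 16 comparisons between probe sets. This pair was chosen after its values were seen, so the permutation p is given as a description only. By their signals these probe sets do not give 1 direction for Igf1. The array annotation named a source sequence for the bright chip A probe set and none for the bright chip B one. The remaining Igf1 probe sets, 1 of the g type on chip A and 1 on chip B, were below the control level at every age.

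Of the cells known for Igf1, the summed markers of microglia and of GABAergic interneurons overlapped between the ages. Microglial genes (12 measured) summed to 5416 to 6629 at P14, 6442 to 6894 at P28 and 4950 to 6693 at P60, and Aif1, P2ry12 and Itgam were below the control level at every age. GABAergic interneuron genes (16 measured) summed to 27026 to 32322, 30745 to 38161 and 28654 to 33956. Excitatory cortical neuron genes (14 measured) did not overlap between P14 and P28. They summed to 46349 to 56865 at P14, 39549 to 45850 at P28 and 36501 to 46607 at P60. By limma 0 of 9 tested microglial and 0 of 14 tested interneuron genes passed in any comparison. The part of any of these cells in the Igf1 values was not tested.

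**Figure D2:**
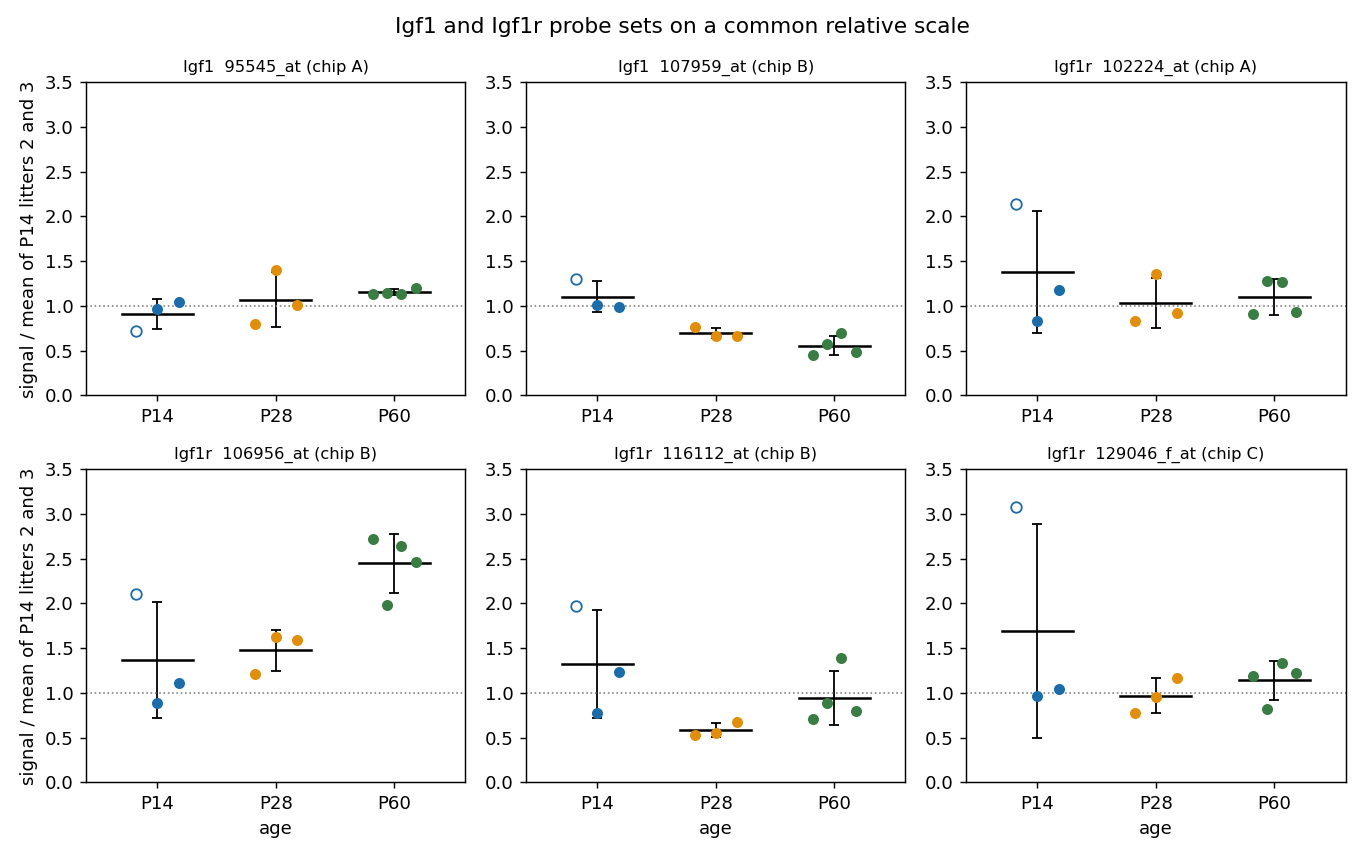
Signal of each litter divided by the mean of P14 litters 2 and 3 (linear axis from 0) for the 2 tested probe sets of Igf1 and the 4 of Igf1r, with the mean and SD of each age as bars. Open points are P14 litter 1, which is the highest P14 litter on all 4 Igf1r probe sets. The Igf1 means run downwards with age on chip B and upwards on chip A, and on the brighter chip B probe set of Igf1r the P60 mean is the highest of the ages.

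The receptor gene Igf1r had 4 tested probe sets, none of which passed in any comparison with all litters. On the brighter probe set of chip B the signals were 2105, 893 and 1111 at P14, 1214, 1628 and 1596 at P28, and 2728, 1987, 2642 and 2469 at P60. All P60 litters were above all P28 litters, while P14 litter 1 reached into the P60 range. The log2 difference of P60 from P14 was 0.90 (95% interval 0.33 to 1.47, adjusted p = 0.146). Without P14 litter 1 it was 1.24 (adjusted p = 0.0135), in the restricted set 1.16 (adjusted p = 0.0247), and with array quality weights 1.18 (adjusted p = 0.00148).

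With all litters, the other Igf1r probe sets did not show that difference. On chip A the P60 log2 difference from P14 was -0.24 (95% interval -0.89 to 0.42), with signals of 2501, 967 and 1373 at P14, 973 to 1586 at P28 and 1065 to 1491 at P60. On chip C, with a probe set of the f type, it was -0.37 (95% interval -1.13 to 0.39), with 9498, 2968 and 3208 at P14, 2392 to 3615 at P28 and 2537 to 4116 at P60. The dimmer probe set of chip B had 554, 217 and 346 at P14, then 149, 154 and 190 at P28, near the chip's control level of 153, and 200 to 390 at P60. Its P28 litters were below all P14 and all P60 litters, with log2 differences of -0.88 for P28 against P14 (adjusted p = 0.526) and 0.52 for P60 against P28 (adjusted p = 0.897). The change of the brighter chip B probe set between P14 and P60 exceeded those of the chip A, dimmer chip B and chip C probe sets by 1.13, 1.26 and 1.27 on the log2 scale, each with the smallest exact two-sided permutation p that 3 against 4 litters allow (0.0571, and 0.178 after adjustment over the 16 comparisons). The brighter chip B probe set was singled out after its values were seen, and these comparisons all share it. Their p-values are therefore a description and not independent tests. P14 litter 1, the litter with the high 3' to 5' ratios, was the highest P14 litter on all 4 probe sets, and the part of RNA quality in this was not tested. Without that litter the P60 mean was 1.09 (chip A), 1.14 (chip C) and 0.946 (dimmer chip B probe set) times the P14 mean. In the restricted set the log2 differences of these 3 were 0.35, 0.31 and 0.16. On the brighter chip B probe set the ratio of means without P14 litter 1 was 2.45.

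Igf2r did not pass in any comparison. The signal of its probe set, on chip A, was 621, 441 and 318 at P14, 391, 494 and 529 at P28, and 463, 517, 485 and 504 at P60. All ages overlapped. The log2 difference of P60 from P14 was 0.14, with a 95% interval from -0.35 to 0.62 (limma adjusted p = 0.795).

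Among the binding protein genes, Igfbp6 was low at P14 and high at both later ages. On its probe set, on chip A, the P14 litters stood at 723, 60.9 and 186, the P28 litters at 1994, 2219 and 2279, and the P60 litters at 2444, 3177, 2123 and 1918. Every later litter was above every P14 litter, and P28 and P60 overlapped. P14 litter 2 lay below the Bacillus control level of 98.4, and P14 litter 1 was the highest of its age. Mean signals were 324 ± 352 (SD, n = 3), 2164 ± 150 (SD, n = 3) and 2416 ± 552 (SD, n = 4), so that the P60 mean was 7.47 times and the P28 mean 6.69 times that at P14. Without P14 litter 1 the P14 mean was 124 and these ratios were 19.5 and 17.5, so the size of the difference is poorly fixed by the P14 litters.

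Igfbp6 rose between P14 and P60 by 3.23 on the log2 scale (standard error 0.502, 95% interval 2.13 to 4.32, limma adjusted p = 0.0222). Between P14 and P28 the log2 difference was 3.09 (95% interval 1.92 to 4.27), and the adjusted p of 0.145 missed the threshold. The probe set passed the filter on low signals through the later ages and P14 litter 1, since P14 litters 2 and 3 lay below the chip's median of 207. P28 and P60 differed by 0.13 (95% interval -0.96 to 1.23, adjusted p = 0.985). Because of the low P14 signals the size depends on the constant added before the logarithm, with 3.40 for a constant of 16 and 2.88 for a constant of 100, and both passed. Without P14 litter 1 the differences were 4.01 for P60 (adjusted p = 0.00014) and 3.88 for P28 (adjusted p = 0.000378). The P60 call was lost without P14 litter 2 (2.54, adjusted p = 0.0556), P14 litter 3 (3.13, 0.0778), P60 litter 1 (3.21, 0.0826), P60 litter 2 (3.09, 0.0627) or P60 litter 4 (3.33, 0.0778), and in a fit of the 2 ages alone (adjusted p = 0.104).

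The genes most like Igfbp6 over the 10 litters were Lin28a (Pearson r = 0.978), Wnt10a (0.975), Gstm1 (0.953), Ccdc169 (0.950) and Atf6 (0.938). Mean signals in age order were 111, 710 and 763 for Lin28a, on a probe set of the r type with all 3 P14 litters below the chip C control level of 252, and 221, 364 and 403 for the Wnt ligand gene Wnt10a. They were 5033, 8013 and 8359 for the glutathione transferase gene Gstm1, on a probe set of the f type. As these 5 genes were picked for their likeness to a gene that rose with age, their own changes with age are not given as results. The summed signal of 13 measured myelin genes was 6742 to 13905 at P14, with P14 litter 1 the highest, 12390 to 19890 at P28 and 13962 to 18279 at P60, so that P14 overlapped with P28 and not with P60. Of 11 tested myelin genes 1 rose between P14 and P60 by limma (Mag, at 1.51, adjusted p = 0.0461), where 0.396% of all tested probe sets were called. Between P14 and P28 0 passed. By the log2 change, 10 of the 11 were higher than at P14 at P28, and 10 at P60. Their median log2 changes were 0.74 and 0.70, against 0.03 and 0.06 over all tested probe sets. Blood cell genes (3 measured) summed to 5272 to 23993 at P14, lowest in P14 litter 1, to 24816 to 34303 at P28 and to 17478 to 51144 at P60, where they overlapped with P14. The part of these cells in the Igfbp6 values was not tested.

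**Figure D3:**
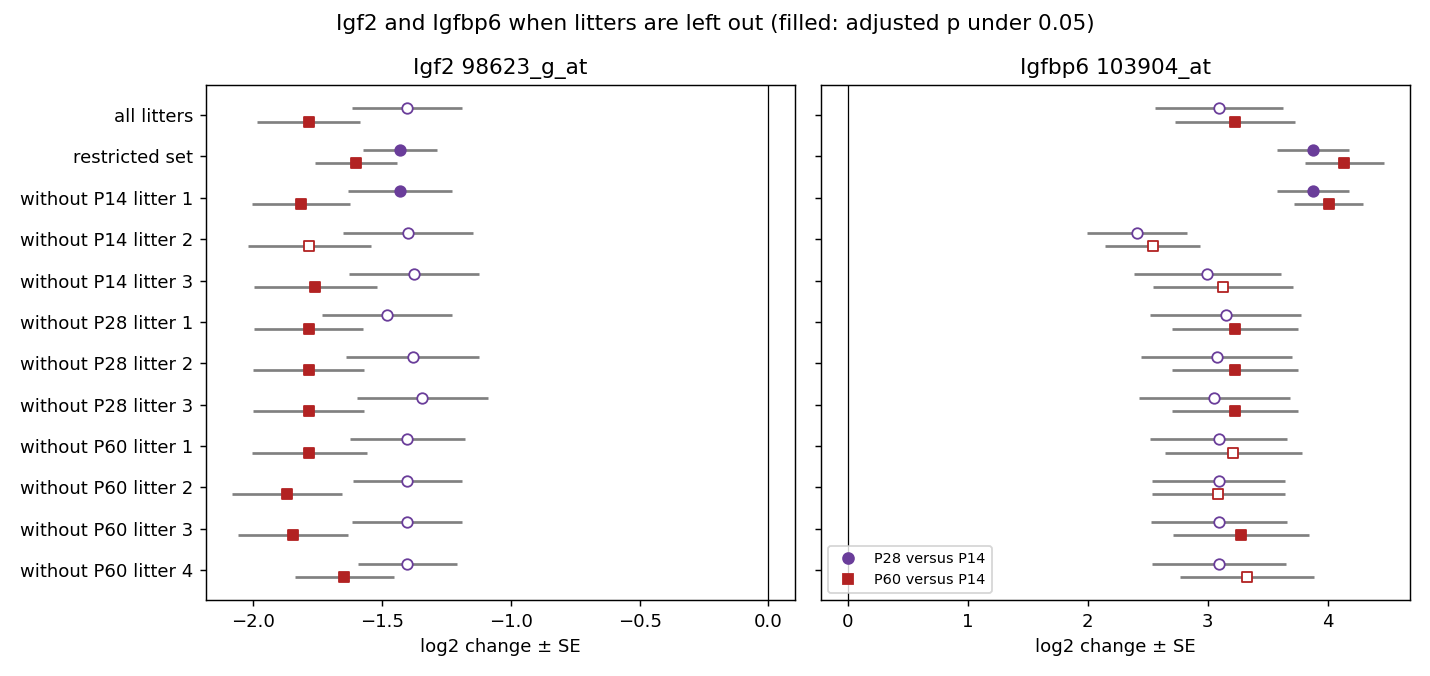
Log2 change with its standard error (horizontal axis) of Igf2 and Igfbp6 in fits with all litters, in the restricted set and with each litter left out (rows). Circles are P28 against P14 and squares P60 against P14, filled where the adjusted p was under 0.05. The Igf2 change for P60 against P14 stayed between -1.87 and -1.60 in these fits, and that of Igfbp6 ran from 2.54 without P14 litter 2 to 4.14 in the restricted set.

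Igfbp2, an abundant binding protein of the developing brain, did not pass in any comparison. The signals of its chip A probe set were 204, 1790 and 1490 at P14, 906, 977 and 1150 at P28, and 1200, 1013, 779 and 845 at P60. P14 litter 1 was far below all other litters, and P14 litters 2 and 3 were above all later ones. With all litters the log2 difference of P60 from P14 was 0.16 (95% interval -1.01 to 1.34, adjusted p = 0.901). Without P14 litter 1 the sign turned, to -0.76 (adjusted p = 0.0652) for P60 and -0.68 (adjusted p = 0.248) for P28, and in the restricted set P60 was at -0.85 (adjusted p = 0.0562). The other probe set, of the r type on chip C, stayed below the control level at every age.

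Igfbp4 was measured on a pair of tested probe sets on chip A, neither of which passed. On the tested probe set with no type letter, called specific here, the P14, P28 and P60 means were 549 ± 116 (SD, n = 3), 555 ± 92.5 (SD, n = 3) and 559 ± 102 (SD, n = 4), a log2 difference of P60 from P14 of 0.03 (95% interval -0.45 to 0.50). On the probe set of the g type the signals were 327, 387 and 589 at P14, 530, 620 and 536 at P28, and 554, 552, 524 and 1011 at P60. The ages overlapped, and the log2 difference of P60 from P14 was 0.55 (95% interval -0.02 to 1.12, adjusted p = 0.332). The untested Igfbp4 probe set lay between 20.9 and 110, with every age mean below the control level. It also has no type letter, and its annotation names the same source sequence as that of the g-type probe set. Igfbp3, which encodes the main carrier of IGF in blood, had signals of 16.5 to 141 on 1 probe set and 27.7 to 53.7 on the other, with every age mean below the control level, so that a change with age was not detectable on them.

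**Figure D4:**
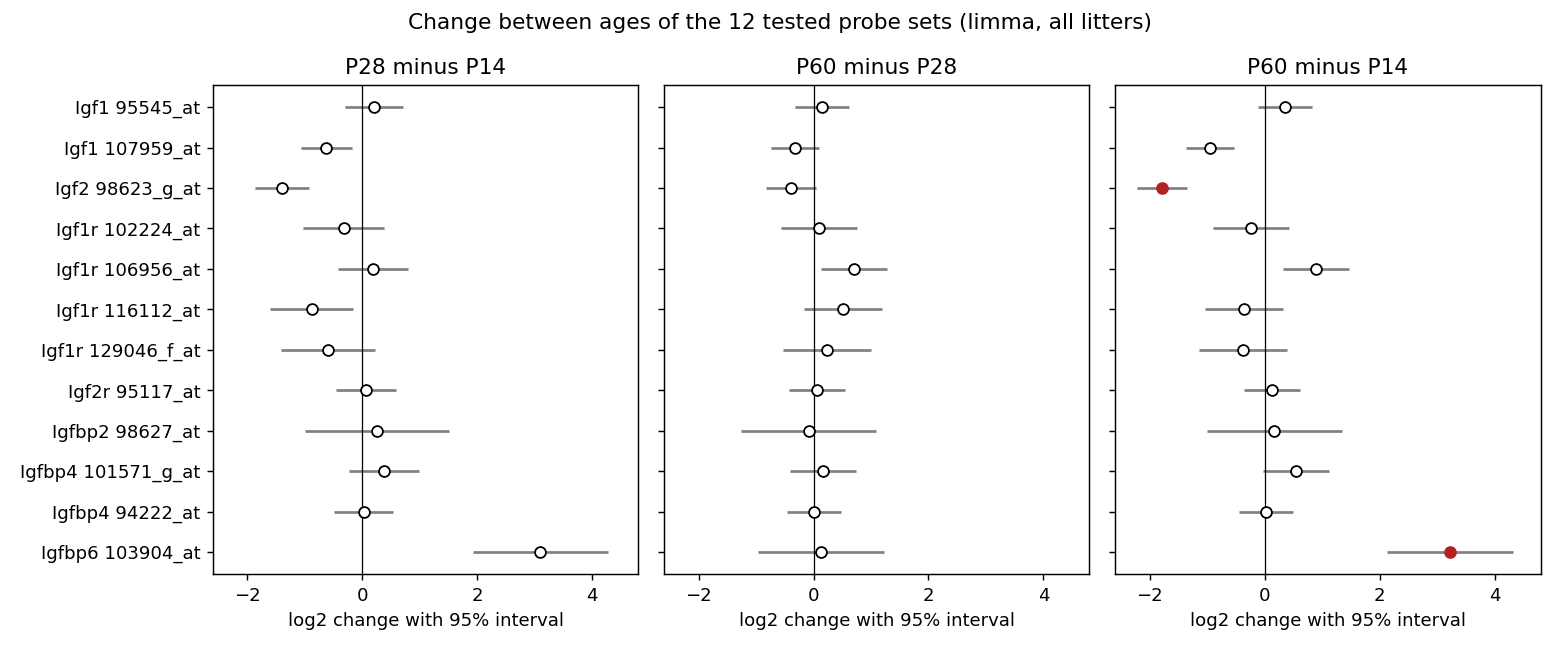
Log2 change (horizontal axis) with its 95% interval for the 12 tested probe sets (rows) in the 3 comparisons (panels), from limma with all litters. Filled red points have an adjusted p under 0.05. Igf2 at -1.79 and Igfbp6 at 3.23 are the filled points, both for P60 against P14.

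Across the members, limma called 2 of the 12 tested probe sets between P14 and P60, 1 higher and 1 lower, where 0.396% of all tested probe sets were called. At an unadjusted p under 0.05 were 4 of the 12, against 15.7% of all. Between P14 and P28 it called 0 of 12, and 0.00483% of all tested probe sets were called. At an unadjusted p under 0.05 were 4 of the 12, against 7.87% of all. Between P28 and P60 it called 0 of 12, and 0% of all were called. At an unadjusted p under 0.05 was 1 of the 12, against 5.43% of all. The median log2 change of the 12 was 0.04, 0.11 and 0.08 for P28 against P14, P60 against P28 and P60 against P14, against 0.03, -0.01 and 0.06 over all tested probe sets. Litters did not overlap between P14 and P60 for 2 probe sets that were higher at P60 (Igfbp6 and Igf1 on chip A). The same held for 2 that were lower (Igf2 and Igf1 on chip B), so Igf1 stands in both counts. Of all tested probe sets 6.61% and 6.42% did so. Between P14 and P28 this held for 1 higher probe set (Igfbp6) and 3 lower ones, against 9.45% and 8.41%. The lower ones were Igf2, Igf1 on chip B and the dimmer chip B probe set of Igf1r. Between P28 and P60 it held for 2 higher, both of Igf1r, and 1 lower (Igf2), against 3.9% and 4.46%. The comparisons share litters, so they are not independent of each other.

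The rest of the IGF axis showed no call. Of 52 other genes listed, from insulin and its receptor through the adaptors Irs1 and Irs2 to the kinases Akt1 and Mtor, 45 were measured and 35 tested, and limma called 0 in each of the 3 comparisons. Their median log2 changes were 0.05, -0.01 and 0.12, close to those of all tested probe sets. The largest differences of P60 from P14 were those of Rptor, a scaffold of the mTOR complex, at 1.16 (adjusted p = 0.43), of the insulin receptor substrate gene Irs2 at 1.11 (adjusted p = 0.356), and of Igf2bp3, an RNA binding protein gene named for its binding to Igf2 transcripts, at 0.68 (adjusted p = 0.314). Irs2 stood at 41 in P14 litter 1 and at 227 and 593 in the other P14 litters. Rptor stood at 92.5 in P14 litter 1, at 1010 and 192 in the others, and from 148 to 1597 at P60. For Igf2bp3 the P14 values were 404 in litter 1 and 1328 and 1012 in the others. All 3 were thus lowest in P14 litter 1 among the P14 litters. Ins2, Igfals, Igfbp1 and Igfbp7 were among 7 listed genes with every age mean below the control level.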

How the data were processed

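Chips A, B and C held 12488, 12477 and 11934 probe sets, with 10 litters on each. The deposited values are MAS5 signal intensities per probe set, per the submitters' processing notes, and the 2% trimmed mean of every array was 500. The MAS5 version and detection calls are not given in the sources used here. Symbols came from the array annotation, brought up to date by gene ID (99.7% found). Signals were analysed as log2(signal + the 20th percentile of the chip type), which was 38.6, 57.8 and 44.0. Probe sets above the chip's median on at least 3 arrays were tested, 20724 in all. A limma 3.58.1 model (R 4.3.3, functions lmFit and eBayes, variance trend on) with age alone was fitted per chip type. All p-values were then adjusted at once by Benjamini-Hochberg, and 0.05 was the threshold. The differences between probe sets of a gene were chosen after their values were seen. The fit was tested on simulated data. The control level is the 95th percentile of 15 Bacillus control probe sets per chip. For a gene with several probe sets in a marker list, chip A came before B and C, then the brightest. Named were all member probe sets, the list genes past the threshold, up to 3 genes per list with the largest P60 difference, and the 5 genes most correlated with a called member. The members, lists and restricted set were chosen with earlier results of these data known. Alternatives were other constants, no filter, quantile normalisation, no variance trend, array quality weights, adjustment within each chip type, fits of 2 ages, the litter number as a block, the restricted set and leaving out each litter.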

Additional observations from a re-analysis of the deposited data

Results flagged for a closer look

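For each of the 19 member probe sets, the 4 P60 litters were examined for 1 that stood far from the others, and chance flags about 1 in 20 such groups. P60 litter 4 stood apart on 2 of them. For the tested g-type probe set of Igfbp4 it gave a signal of 1011 where the other P60 litters lay between 524 and 554, and its gap to the nearest litter was 0.915 of the whole range on the log2 scale. For the bright chip A probe set of Igf1 it gave 1936 where the others lay between 1825 and 1840, a gap of 0.860 of a narrow range.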

How the results depend on the processing

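The fall of Igf2 and the rise of Igfbp6 between P14 and P60 kept their direction under all 20 alternatives and passed in 17 and 13 of them. Of the 36 member log2 differences, 17 kept their sign throughout. The cause of the changes below was not tested. For P60 against P14 the count of called members was 4 with array quality weights (all probe sets 3621) and 0 with only the 2 ages compared (all probe sets 0). It was 3 in the restricted set, where 441 probe sets passed, and without a variance trend 51 passed in all. For P28 against P14 the members called were 1 with adjustment within each chip type (5 in all), 3 with array quality weights (1163 in all) and 2 in the restricted set (208 in all), and 0 probe sets passed with only the 2 ages compared. Tested over the 3 ages together, 2 members passed with adjustment within each chip type, with a constant of 100 and in the restricted set, and 4 with array quality weights. For the 3 ages together, counts over all probe sets are not given for these fits or for leaving out litters. Such counts are therefore not read as a result about the members. With the litter number as a replicate block, 0 members and 0 probe sets passed in P28 against P14, P60 against P14 and the 3 ages together, Igf2 and Igfbp6 having an adjusted p of 0.108 for P60 against P14. Litters of different ages share only a number, and the deviations of same-numbered litters correlated between -0.076 and 0.158, over 0.1 in 4 of 27 pairs. Leaving out each litter gave 0 to 3 members for the 3 ages, 0 to 2 (0 to 26 of all probe sets) for P28 against P14, 0 to 4 (0 to 497) for P60 against P14, lowest without P14 litter 2 and highest without P14 litter 1, and 0 to 1 of all for P60 against P28. Signs turned only for differences that did not pass. For P28 against P14, array quality weights gave Igfbp2 at -0.59 and Igfbp4 (specific) at -0.021, quantile normalisation gave the latter at -0.023, and the restricted set gave them at -0.68 and -0.032 and Igf1r on chip A at 0.040. For P60 against P14, array quality weights gave Igf1r at 0.030 on chip A and 0.061 on chip C, Igfbp2 at -0.71 and Igfbp4 (specific) at -0.033, quantile normalisation gave the latter at -0.061, and the restricted set gave 0.35, 0.31, -0.85 and -0.063 for these 4 and 0.16 for the dimmer chip B probe set of Igf1r. For P60 against P28, quantile normalisation gave Igf2r at -0.0083 and Igfbp4 (specific) at -0.038, the block gave Igfbp4 (g type) at -0.043, the restricted set gave it at -0.057 and the specific one at -0.031, and array quality weights gave the latter at -0.012. Leaving out each litter, the ranges that crossed 0 for P28 against P14 were -0.0067 to 0.39 for Igf1 on chip A, -0.63 to 0.040 for Igf1r on chip A, -0.060 to 0.53 for its brighter chip B probe set, -0.15 to 0.29 for Igf2r, -0.68 to 0.78 for Igfbp2 and -0.085 to 0.17 for Igfbp4 (specific). For P60 against P14 they were -0.54 to 0.13 and -0.67 to 0.16 for Igf1r on chips A and C, -0.084 to 0.36 for Igf2r, -0.76 to 0.69 for Igfbp2 and -0.078 to 0.18 for Igfbp4 (specific). For P60 against P28 they were -0.040 to 0.36 for Igf1 on chip A, -0.049 to 0.29 for Igf1r on chip A, -0.051 to 0.15 for Igf2r, -0.20 to 0.0081 for Igfbp2, -0.043 to 0.26 and -0.13 to 0.11 for Igfbp4 (g type and specific), and -0.0061 to 0.23 for Igfbp6. Signal near the control level limits Igfbp3, the second probe sets of Igf1, Igf2, Igfbp2 and Igfbp4, and Igfbp6 at P14. The same holds for the dimmer chip B probe set of Igf1r at P28.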

Other observations

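Of the other marker lists, 0 of 10 tested astrocyte, 0 of 14 excitatory cortical neuron, 0 of 6 hippocampal and 0 of 7 thalamic and subcortical genes passed in any comparison by limma. Astrocyte genes summed to 18334 to 35799 at P14, with P14 litter 1 the highest, and to 16168 to 23271 at P60. Excitatory neuron genes summed to 46349 to 56865 at P14 and 36501 to 46607 at P60, with the layer IV transcription factor gene Rorb at -1.10 (adjusted p = 0.146). Hippocampal genes summed to 2644 to 3228 at P14 and 3289 to 6639 at P60, with Cabp7 at 1.86 (adjusted p = 0.314). Thalamic and subcortical genes summed to 10097 to 13973 at P14 and 8420 to 11365 at P60.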
